A study of Homo sapiens with 28 samples.

Results

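Integrins, laminins and the glycoproteins of the extracellular matrix were followed in SK-N-AS, an established neuroblastoma cell line, while MYCN was switched on. The genes were taken by symbol: the integrin α and β subunits, the laminin chains and the thrombospondins, together with FN1, SPARC, TNC, NID1, NID2, FBN1, FBN2 and POSTN. Of 19775 genes with a probe set of their own on the Affymetrix array, 47 met this rule. A filter on low signal left 32 of the 47, and 11865 genes in all, to be tested. The filter used the mean over both lines, so a gene bright in a single line could pass through it.

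RNA was hybridised to 28 arrays. Of these, 21 came from the MYCN line (SK-N-AS-tet, MYCN), in which doxycycline induces MYCN, with 3 replicates at each of 7 time labels: 0, 4, 8, 24, 48, 96 and 192. The other 7 came from a mock line that carries the vector pcDNA6TR, which encodes the tet repressor, with 1 array at each of those times. Both lines were harvested after doxycycline, so the drug is shared by all later times of both. The labels state neither the unit of time, nor whether a line is 1 clone, nor that replicates were separate cultures. A p-value here therefore measures only how these samples spread, possibly for technical reasons, and the number of arrays limits the precision.

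MYCN itself read 69.4, 79.2 and 103 at time 0 and 3273, 3065 and 3242 at time 192, and 1.6 to 3.0 in the mock line (signal, the linear intensity that the authors deposited). TH and DBH, the catecholamine enzymes that mark noradrenergic neuroblasts, stayed at or under 8.7 on all arrays of both lines, whereas VIM, a mesenchymal filament gene, had mean signals of 5639 (MYCN line) and 4969 (mock line). PHOX2A, a transcription factor of noradrenergic cells, averaged 5.46 in the former and 760 in the latter. In the MYCN line the other noradrenergic markers GATA3, GATA2, ISL1, HAND1, HAND2 and DDC averaged 298, 114, 136, 14.1, 29.1 and 2.63. In the mock line they averaged 821, 563, 410.5, 539, 53.7 and 30.4. At time 192 GATA2 (0.84, limma adjusted p = 0.01815) and GATA3 (0.39, 0.0239) were higher than at time 0 on the log2 scale, and ISL1 (-0.43, 0.0334) was lower. Summed signals of the noradrenergic list (9 of 11 markers measured) were 589 to 615 at time 0, 693 to 760 at time 192 and 2969 to 3288 in the mock line, and those of the 8 mesenchymal markers were 9939 to 10709, 10042 to 10736 and 8944 to 10169. Of the mesenchymal markers, the transcription factor genes TWIST1 (-0.87, limma adjusted p = 0.00560) and PRRX1 (-0.58, 0.0467) were lower at time 192 on the log2 scale, and CD44, a hyaluronan receptor, was higher (1.37, 0.00273). Leukocyte markers (3 of 5 measured) summed to 17.4 to 39.2 at time 0, 7.1 to 15.2 at time 192 and 213 to 275 in the mock line, where PTPRC alone had a mean of 231. At time 0, at time 192 and in the mock line, Schwann cell and epithelial markers summed to at most 30.9 and endothelial markers to at most 114. The bioD hybridisation control read 1558 to 1945 on MYCN line replicates 1 and 2, against 2231 to 2548 on replicate 3 and on all mock arrays, so these 2 sets of arrays were treated as hybridisation batches. How far any of these differences bear on the matrix genes was not tested, beyond the fits with the batch as a term or block.

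Integrins are receptors made of 1 α and 1 β subunit that span the plasma membrane and tie the matrix to the actin cytoskeleton. Laminins are trimers of an α, a β and a γ chain that build the basement membrane, where nidogens link them to collagen IV. Fibronectin and fibrillins form fibrils around cells, and the matricellular proteins (thrombospondins, tenascin-C, periostin, SPARC) modulate adhesion more than they bear load. Neuroblastoma cells are known to exist in an adrenergic and a mesenchymal state, the latter rich in matrix genes, and MYCN is the transcription factor whose amplification marks high-risk tumours.

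Of the 16 tested genes for matrix proteins 7 were lower and 1 was higher at the end of the course, and of the 16 tested integrin genes 2 were lower and 2 higher. The labels do not state that the replicate number pairs the arrays, and it follows the hybridisation batch in part. It was taken to pair the arrays at time 192. With it as a block, 11 of the matrix genes were lower and 1 higher, and 3 integrin genes were lower and 2 higher (14 lower in all, 43.8%, background 19%, and 3 higher, 9.38%, background 16.1%). The values that follow are from the fit without the block. At time 192, 9 of the 32 tested genes were lower than at time 0 (28.1%, against 14.1% of all genes tested) and 3 were higher (9.38%, against 11.6%), by limma with Benjamini-Hochberg adjustment at 0.05. Together that was 12 genes (37.5%, against 25.8%). The 9 were FN1, THBS3, POSTN, TNC, LAMA5, LAMB2, ITGA7, ITGB5 and SPARC, and the 3 were ITGA6, LAMC3 and ITGA2. The median change over the 32 was -0.22 on the log2 scale, against -0.03 over all genes tested. For the 7 glycoproteins (FN1, FBN1, NID1, NID2, SPARC, TNC and POSTN) the median was -1.04, for the 6 laminin chains -0.27, and for the 16 integrins -0.11. For the 3 thrombospondins it was 0.24. The same 4 medians on the single mock array of time 192, against that of time 0, were 0.24, 0.41, -0.01 and -0.30. In these bulk samples, fewer cells of a type and less RNA per cell cannot be told apart.

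At times 4 and 8 no matrix or integrin gene passed the test in limma (background 0.00843% and 0.767% of all genes), with 5 and 4 of them under 0.05 before adjustment, as were 6.56% and 10% of all genes. When the replicate number was added as a block, 1 gene, ITGA2, was called at time 8 (limma adjusted p = 0.0328, against 0.210 without the block) and none at time 4. The background with the block was 2.36% at time 8. At time 24, TNC, LAMB2 and ITGA10 were lower and none was higher (9.38% called, background 3.27% lower, 3.91% higher and 7.18% in either direction). At time 48, 7 were lower (21.9%, background 7.67%) and LAMC3 was the 1 that was higher (background 7.04%, and 14.7% in either direction). At time 96, 8 were lower (25%, background 13.2%) and LAMC3 was again the 1 higher (background 10.3%, and 23.4% in either direction). The F-test over all times called 11 of the 32 (34.4%, background 25.4%). All these contrasts share the time 0 arrays. The count at time 24 was 10 with the replicate block (31.2%, background 14.9%), and it was 1 without replicate 1 and 0 without replicate 2. At time 48 it was 2 without either of those replicates, and at time 96 it was 5 without replicate 2.

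**Figure D1:**
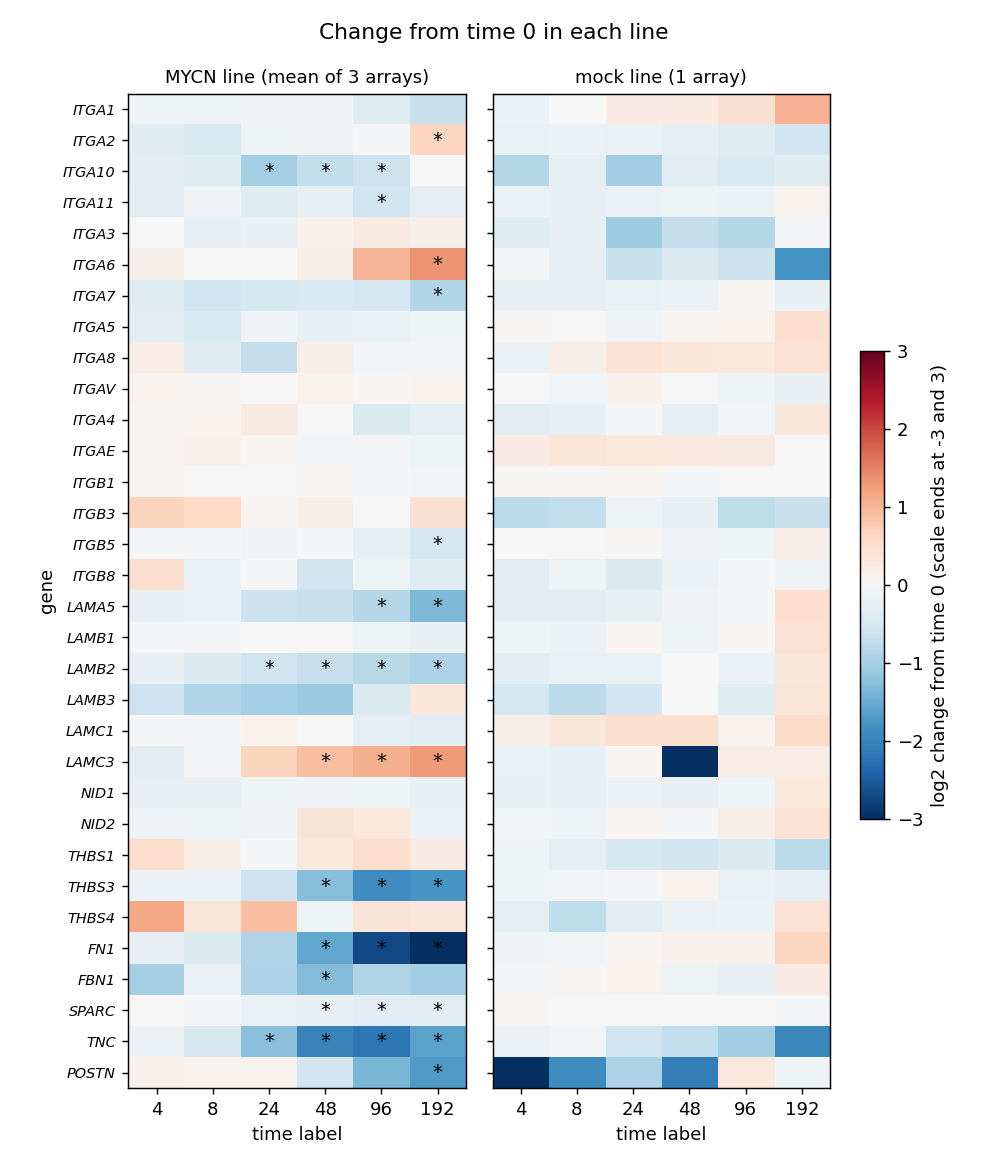
Log2 change from time 0 for each of the 32 tested genes (rows, by role) at the 6 later times (columns), as the mean of 3 arrays in the MYCN line and as the single array in the mock line. Colour gives the log2 change, an asterisk marks a called gene (MYCN line only), and the mock squares of LAMC3 (2.1 at time 48) and POSTN rest on signals under the filter. FN1 at -2.99 is the deepest fall of the MYCN line at time 192.

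Promoter sequences are printed for the 4 genes with the deepest called falls at time 192 and for the gene with the largest called rise, so that their base composition and short motifs can be compared. Each is the 250 bases before the gene's transcription start in RefSeq on GRCh38.p14, written 5′ to 3′ on the gene's own strand. The windows are chr2:215436069-215436318 (FN1, minus strand), chr1:155207898-155208147 (THBS3, minus), chr13:37598769-37599018 (POSTN, minus), chr9:115118158-115118407 (TNC, minus) and chr2:172427086-172427335 (ITGA6, plus). RefSeq lists 2 windows for THBS3 and for ITGA6, and the earlier in the table is shown. Capitals mark 4 motifs searched on both strands: the E-box CACGTG, which MYC-family proteins bind, the GC box GGGCGG, the cyclic AMP element TGACGTCA and the TATA box TATAAA. Read on the other strand, the GC box appears as CCGCCC and the TATA box as TTTATA.
FN1: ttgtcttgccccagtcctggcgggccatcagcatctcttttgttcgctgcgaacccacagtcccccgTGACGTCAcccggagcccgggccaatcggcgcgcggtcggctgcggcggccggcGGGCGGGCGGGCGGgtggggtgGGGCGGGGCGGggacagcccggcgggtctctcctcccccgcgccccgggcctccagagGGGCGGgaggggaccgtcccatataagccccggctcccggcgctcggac
THBS3: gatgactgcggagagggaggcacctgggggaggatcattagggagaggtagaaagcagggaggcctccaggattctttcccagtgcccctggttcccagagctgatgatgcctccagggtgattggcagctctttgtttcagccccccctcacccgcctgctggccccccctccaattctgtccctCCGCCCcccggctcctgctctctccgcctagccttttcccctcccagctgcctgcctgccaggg
POSTN: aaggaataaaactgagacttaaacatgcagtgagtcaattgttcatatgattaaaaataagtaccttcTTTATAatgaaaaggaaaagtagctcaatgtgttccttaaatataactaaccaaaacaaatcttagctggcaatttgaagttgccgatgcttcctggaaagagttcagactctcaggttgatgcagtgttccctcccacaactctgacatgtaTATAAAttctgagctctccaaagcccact
TNC: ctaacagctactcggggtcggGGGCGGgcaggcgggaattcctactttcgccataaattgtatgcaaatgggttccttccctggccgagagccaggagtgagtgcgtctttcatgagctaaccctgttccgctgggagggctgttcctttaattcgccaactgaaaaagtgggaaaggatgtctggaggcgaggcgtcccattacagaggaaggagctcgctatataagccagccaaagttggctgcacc
ITGA6: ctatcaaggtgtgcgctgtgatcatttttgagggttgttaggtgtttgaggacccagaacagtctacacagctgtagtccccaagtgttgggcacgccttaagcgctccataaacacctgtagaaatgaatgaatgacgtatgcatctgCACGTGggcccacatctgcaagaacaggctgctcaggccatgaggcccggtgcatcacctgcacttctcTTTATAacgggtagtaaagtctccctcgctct

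The FN1 window was 76.4% G and C and held 6 GC boxes, some of them overlapping, and the cyclic AMP element at base -183 from the start. The POSTN window was 36.4% G and C, with TATAAA at -29, its other-strand form TTTATA at -182 and no GC box. The THBS3 and TNC windows each held 1 GC box. The ITGA6 window shown held the E-box at -101 and, at -32, TTTATA, which is TATAAA on the other strand. Its second window held neither of these motifs but 3 GC boxes. Of the 32 tested genes 28 had a window. CACGTG occurred in 2 of them (ITGA6 and THBS4, for each in the first window listed and not in the second), while 6.34% of all 35116 windows of this length hold it. GGGCGG occurred in 19 of the 28 genes (42.6% of all windows), TATAAA in 3 (10.7%) and TGACGTCA in FN1 alone (1.65%). Some of the 28 genes have several windows, which raises a share counted by gene. Counted by window, of their 37 windows 23 held GGGCGG, 3 held TATAAA, 2 held CACGTG and 1 held TGACGTCA. A match of letters is not a bound site.

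FN1, which encodes fibronectin, the ligand of α5β1 and αv integrins, had the largest fall of the set. It read 2139, 2006 and 2343 at time 0, 977, 1260 and 1240 at time 24, 563, 551 and 1279 at time 48, 350, 226 and 463 at time 96, and then 264, 246 and 312 at time 192. All 3 arrays of each time from 24 onward lay below the time 0 arrays. The change was -1.55 (SE 0.27) at time 48, -2.70 at time 96 and -2.99 at time 192, a 7.92-fold fall (limma adjusted p = 8.53e-04, 1.83e-06 and 4.369e-07). The call at time 48 was lost without replicate 1 (adjusted p = 0.0849), while the later calls held without any 1 replicate. All 5 FN1 probe sets bright enough to test were lower at time 192, with changes from -3.17 to -2.36. In the mock line FN1 read 222 to 264 up to time 96 and 373 at time 192, so by time 192 the arrays of the MYCN line lay within the range of the mock line.

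FBN1, which encodes fibrillin-1 of the microfibrils, was dim in the MYCN line. It read 26.7, 29.8 and 40.8 at time 0, 12.9, 9.2 and 18.0 at time 48, and then 16.9, 20.3 and 10.8 at time 192. The fall at time 48 was 2.48-fold (-1.31, SE 0.39, limma adjusted p = 0.0287) and was lost when replicate 1 or 2 was left out (adjusted p = 0.198 and 0.238). At time 192 the change was -1.04 (adjusted p = 0.0536, and 0.0333 with the replicate block), with all 3 arrays below those of time 0. The mock line read 207 to 285 throughout.

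TNC encodes tenascin-C, a hexameric glycoprotein of wound and tumour stroma. It read 250, 165 and 196 at time 0, 77.7, 101 and 76.0 at time 24, 51.7, 35.1 and 68.8 at time 48, 78.9, 41.2 and 27.8 at time 96, and then 74.8, 91.0 and 42.9 at time 192. The 12 arrays from time 24 on all lay below the time 0 arrays. The change was -1.26 at time 24, -2.01 by time 48, -2.16 by time 96 and -1.60 (SE 0.33) by time 192 (limma adjusted p = 0.0255, 4.948e-04, 1.309e-04 and 0.00150). The time 24 call was lost without any 1 replicate (adjusted p = 0.231, 0.0972 and 0.0526 without replicates 1, 2 and 3). The mock line fell as well, through 73.3, 64.4, 69.3, 48.6, 43.8, 35.8 and 19.2, a trend of -0.29 per time step (SE 0.05, limma adjusted p = 0.0217). The trends of the 2 lines differed by -0.08 (SE 0.10, adjusted p = 0.636), which does not show that they are equal.

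Of the thrombospondins, secreted proteins that bind calcium and several integrins, THBS3 was the 1 that fell. It read 420, 458 and 486 at time 0, 288, 281 and 313 at time 24, 114, 171 and 329 at time 48, 111, 104 and 167 at time 96, and then 102, 163 and 142 at time 192. No array from time 24 on reached those of time 0. Its fall was 2.44-fold at time 48, 3.65-fold at time 96 and 3.41-fold at time 192 (-1.77, SE 0.26, limma adjusted p = 5.414e-05). At time 48 it was lost without replicate 1 or 2 (adjusted p = 0.0725 and 0.123). In the mock line THBS3 stayed between 492 and 650.

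THBS1, an activator of latent TGF-beta, scattered too widely to place. It read 890, 282 and 659 at time 0 and 662, 898 and 462 at time 192, with a change of 0.24 (95% interval -0.81 to 1.30, limma adjusted p = 0.774). Its 5 bright probe sets ran from -0.64 to 0.28. THBS4 was at 6.5 to 10.5 at time 0 and 4.7 to 17.1 at time 192, close to the filter, and had passed it through the mock line, where it read 26.1 to 60.4.

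SPARC, which encodes a collagen-binding matricellular protein, fell by a small amount. It read 2140, 1872 and 2102 at time 0, 1865, 1609 and 1737 at time 48, 1791, 1658 and 1474 at time 96, and then 1595, 1640 and 1630 at time 192. The change at time 192 was -0.33 (SE 0.08, 1.25-fold, limma adjusted p = 0.00353), with no overlap with time 0, and a second bright probe set of the gene gave -0.90. Without replicate 1 the adjusted p was 0.0686, and with array medians made equal the call was also lost. The call at time 48 (-0.23, adjusted p = 0.0479) was lost without any 1 replicate (adjusted p = 0.185, 0.254 and 0.131), and that at time 96 without replicate 3 (adjusted p = 0.104). The mock line held 4031 to 4444.

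POSTN encodes periostin, a ligand of αv integrins. It read 56.2, 55.4 and 86.5 at time 0, 14, 20.5 and 54.5 at time 96, and then 52.1, 19.1 and 8.0 at time 192. The 3 arrays of time 192 were all below those of time 0 but spread over a wide range. The fall of 3.23-fold (-1.69, SE 0.57, limma adjusted p = 0.0341) was lost without replicate 2 (-1.77, adjusted p = 0.224) or replicate 3 (-0.82, adjusted p = 0.134), and without the time 192 array of replicate 3 alone it was -1.03 (adjusted p = 0.191). In the mock line POSTN was at 0.5 to 7.4, under the filter's signal of 12.8, so the gene passed through the MYCN line.

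**Figure D2:**
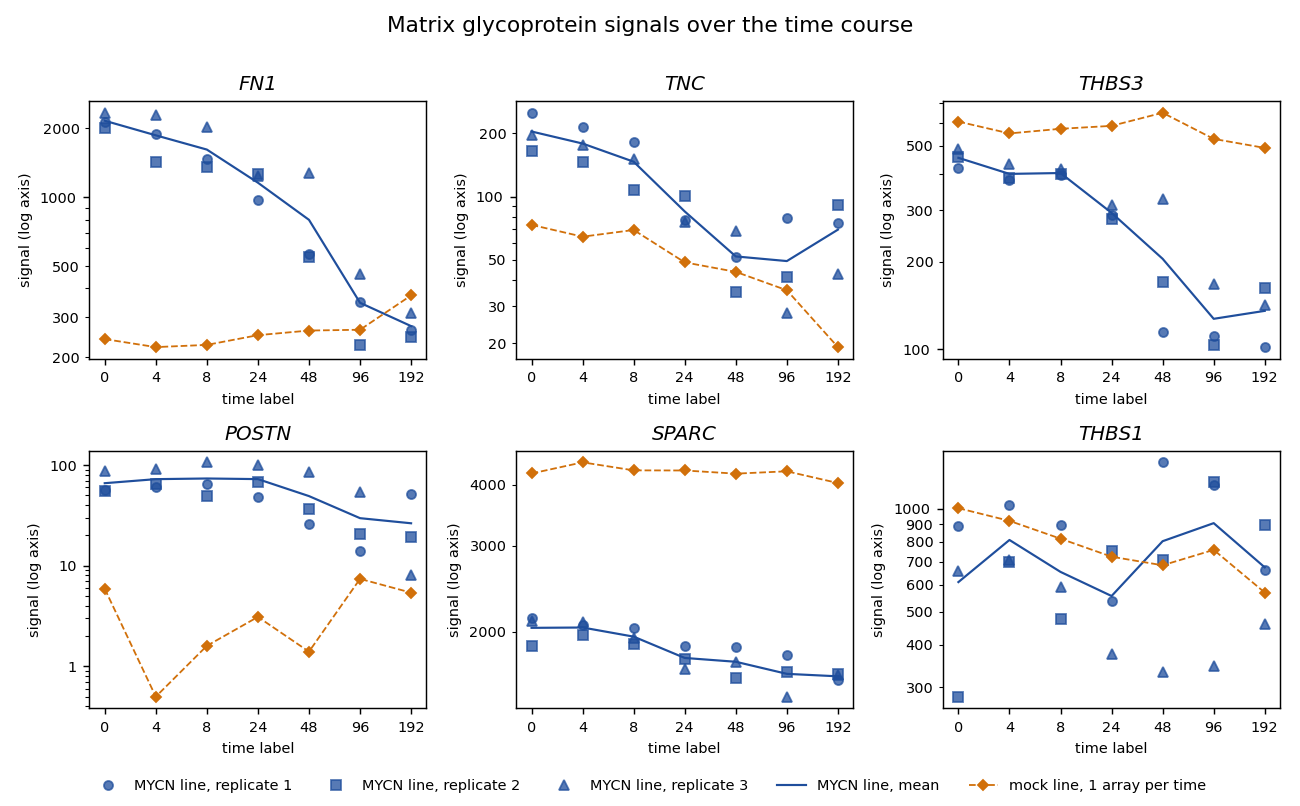
Signal (log axis) against time label for glycoproteins and thrombospondins, with 3 replicates and their mean in the MYCN line and 1 array per time in the mock line. FN1 drops from 2006 to 2343 at time 0 to 246 to 312 at time 192, beside 222 to 373 in the mock line.

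Of the 6 tested laminin chains, LAMA5 and LAMB2 fell and LAMC3 rose. LAMA5, the α5 chain of many adult basement membranes, read 119, 173 and 175 at time 0, 78.0, 78.5 and 101 at time 96, and then 48.3, 61.6 and 74.5 at time 192. All arrays of time 96 and time 192 were below those of time 0. The fall at time 192 was 2.54-fold (-1.34, SE 0.24, limma adjusted p = 4.512e-04), and that at time 96 (-0.85, adjusted p = 0.0159) was lost without replicate 2 (adjusted p = 0.226). In the mock line LAMA5 went from 390 to 559.

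LAMB2, the β2 chain of synaptic and glomerular laminins, read 115, 96.1 and 150 at time 0, 70.8, 75 and 88.6 at time 24, and then 55.4, 64.7 and 66.2 at time 192. It was below every time 0 array from time 24 on, and its fall grew from 1.52-fold at time 24 to 1.91-fold at time 192 (-0.94, SE 0.17, limma adjusted p = 3.937e-04). The call at time 24 was lost without any 1 replicate (adjusted p = 0.265, 0.127 and 0.122), and that at time 48 without replicate 1 or 2 (adjusted p = 0.173 and 0.0656). LAMB2 was between 85.8 and 136 in the mock line.

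LAMC3, the γ3 chain, was the laminin gene that rose. It read 39.1, 40.1 and 38.1 at time 0, 58.6, 92.3 and 71.7 at time 48, 68.8, 88.2 and 91.2 at time 96, and then 74.6, 89.2 and 128 at time 192. No array from time 24 on overlapped time 0. The rise at time 192 was 2.42-fold (1.28, SE 0.25, limma adjusted p = 7.47e-04). Calls at time 48 (0.90) and time 96 (1.07) were lost without replicate 2 (adjusted p = 0.217 and 0.0586), and the former also without replicate 1 (0.0832). The mock line stayed at 2.1 to 20.3.

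LAMB1 and LAMC1, the β1 and γ1 chains of most laminin trimers, were not called without a block. LAMB1 read 1319, 1195 and 1789 at time 0 and 1112, 1178 and 1383 at time 192 (-0.21, SE 0.15, limma adjusted p = 0.318). LAMC1 read 1437, 1411 and 1611 at time 0 and 963, 1260 and 1386 at time 192, all below time 0 (-0.32, SE 0.13, adjusted p = 0.0838). With the replicate number as a block both were called lower (adjusted p = 0.0227 and 0.0102). The second LAMC1 probe set gave 0.31, so the sign depends on the probe set. NID1, a nidogen, changed by -0.22 (limma adjusted p = 0.174, and 0.00697 with the block). NID2 (131 to 257 at time 192, against 179 to 244) and LAMB3, a β3 chain of an epithelial laminin (40.2 to 86.0, against 27 to 65.1), overlapped time 0.

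**Figure D3:**
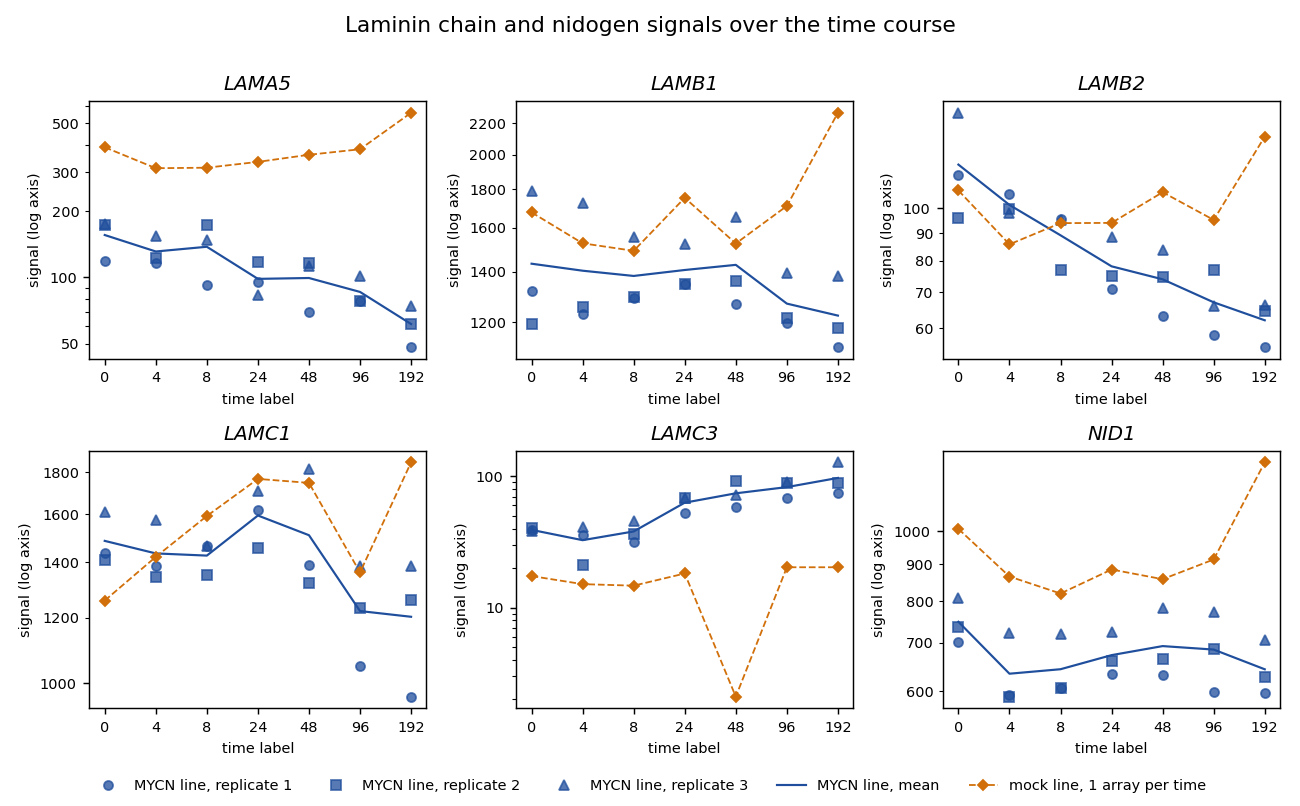
Signal (log axis) of laminin chains and NID1 against time label, drawn as for the glycoproteins. LAMA5 and LAMB2 descend in the MYCN line, LAMC3 ascends from 38.1 to 40.1 to 74.6 to 128, and LAMB1 and LAMC1 keep within 963 to 1817 in the MYCN line.

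Of the 4 tested β subunits ITGB5 was the 1 that fell. ITGB1, which pairs with more α subunits than any other β, read 3246, 3273 and 3326 at time 0 and 3113, 3077 and 3076 at time 192. The 2 groups did not overlap, but the difference of -0.09 (95% interval -0.21 to 0.03) did not pass the test (limma adjusted p = 0.286). ITGB5, the partner of αv in the vitronectin receptor αvβ5, read 1355, 1313 and 1507 at time 0 and 803, 1036 and 1134 at time 192. That was a 1.42-fold fall with no overlap (-0.50, SE 0.09, limma adjusted p = 6.427e-04), and its 4 bright probe sets ran from -1.07 to -0.50. The mock line held 1640 to 2051. ITGB3 (10.6 to 19.8 at time 0, 13.5 to 35.7 at time 192) and ITGB8 (6.6 to 12.1, and 3.9 to 10.3) were near or under the filter's signal in the MYCN line.

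Of the collagen-binding α subunits, ITGA2 alone rose. It read 704, 608 and 536 at time 0, 441, 445 and 451 at time 8, and then 1145, 899 and 855 at time 192. Its arrays were all below time 0 at time 8 and all above at time 192, where the rise was 1.57-fold (0.65, SE 0.15, limma adjusted p = 0.00348). Leaving out replicate 2 gave an adjusted p of 0.0571, and the call was also lost with equal array medians. A second probe set gave 1.12. In the mock line ITGA2 moved from 1148 down to 768.

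ITGA1, the other collagen receptor subunit of wide distribution, read 169, 246 and 221 at time 0 and 69.0, 204 and 160 at time 192. The groups overlapped (-0.67, SE 0.29, limma adjusted p = 0.0985), and the block gave 0.0330. ITGA1 rose in the mock line from 382 to 791. ITGA10, of chondrocyte collagen II receptors, had a passing dip: 110, 94.9 and 113 at time 0, 50.2, 53.2 and 51.8 at time 24, and then 153, 83.5 and 88.7 at time 192. It was lower at time 24 (-1.03, adjusted p = 0.00186), time 48 (-0.74) and time 96 (-0.62), and between time 24 and time 192 it rose by 1.01 (adjusted p = 0.00411). Without replicate 2 the adjusted p was 0.0546, 0.105 and 0.104 at these 3 times, and without replicate 3 the calls at times 48 and 96 were lost too (0.118 and 0.0948), as was that at time 96 without replicate 1 (0.0864). The mock line showed -1.04 at time 24 as well, with 61.7 at time 0 and 30.0 at time 24. ITGA11, a receptor subunit for fibrillar collagen, read 132, 135 and 183 at time 0 and 81.3, 113 and 103 at time 96, with no overlap. It was called lower at time 96 alone (-0.59, limma adjusted p = 0.00967), a call lost without any 1 replicate (adjusted p = 0.0644, 0.0600 and 0.0706).

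Between time 24 and time 192, a contrast that does not use time 0, 3 genes fell (FN1, THBS3 and ITGB5; 9.38%, background 2.79%) and 2 rose (ITGA10 and ITGA2; 6.25%, background 1.83%). This contrast was chosen after seeing the data. FN1 changed by a further -2.08 (limma adjusted p = 2.77e-04), THBS3 changed by -1.14 and ITGB5 by -0.39.

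The laminin-binding α subunits went opposite ways. ITGA6, whose product pairs with β1 or β4 on laminin, read 46.5, 22.4 and 29.9 at time 0, 86.4, 70.3 and 42.9 at time 96, and then 162, 76.7 and 40.5 at time 192. The lowest array of time 192 was below the highest of time 0, so the groups overlapped. The rise of 2.53-fold (1.34, SE 0.49) just passed the test (limma adjusted p = 0.0490, and 0.00328 with the replicate block). It failed without replicate 1 or replicate 2 (adjusted p = 0.0765 and 0.379), and in 13 of 19 alternatives. In the mock line ITGA6 fell from 105 to 30.1. ITGA7, a laminin receptor of muscle and Schwann cells, read 152, 122 and 135 at time 0 and 55.0, 100 and 74.8 at time 192, a fall with no overlap (1.83-fold, -0.87, SE 0.26, limma adjusted p = 0.0189). Without replicate 1 the adjusted p was 0.255. ITGA3 overlapped time 0 (161 to 238 at time 192, 149 to 228 at time 0).

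The α subunits that recognise the RGD motif of fibronectin and vitronectin were not called at any time. ITGAV read 912, 910 and 885 at time 0 and 866, 1081 and 969 at time 192 (0.10, 95% interval -0.14 to 0.34, limma adjusted p = 0.569). ITGA5, the α subunit of the main fibronectin receptor, was at 223 to 242 and 183 to 242 (-0.13, 95% interval -0.41 to 0.14). ITGA8 was at 4.5 to 15.1 and 5.5 to 14.6, mostly under the filter's signal, which it passed through the mock line. Beside the FN1 change of -2.99 at time 192, the 95% intervals of ITGAV and ITGA5 at that time reached no lower than -0.41. Earlier, ITGA5 lay below all time 0 arrays at time 4 (-0.31, 95% interval -0.59 to -0.04) and time 8 (-0.47, -0.74 to -0.19). Neither was called (limma adjusted p = 0.705 and 0.137). ITGA4, which with β1 binds VCAM1 and fibronectin, read 116 to 148 and 80.5 to 128 (-0.27, adjusted p = 0.278). ITGAE, a subunit best known from intraepithelial lymphocytes, read 726 to 861 and 628 to 858 (-0.15, adjusted p = 0.390).

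**Figure D4:**
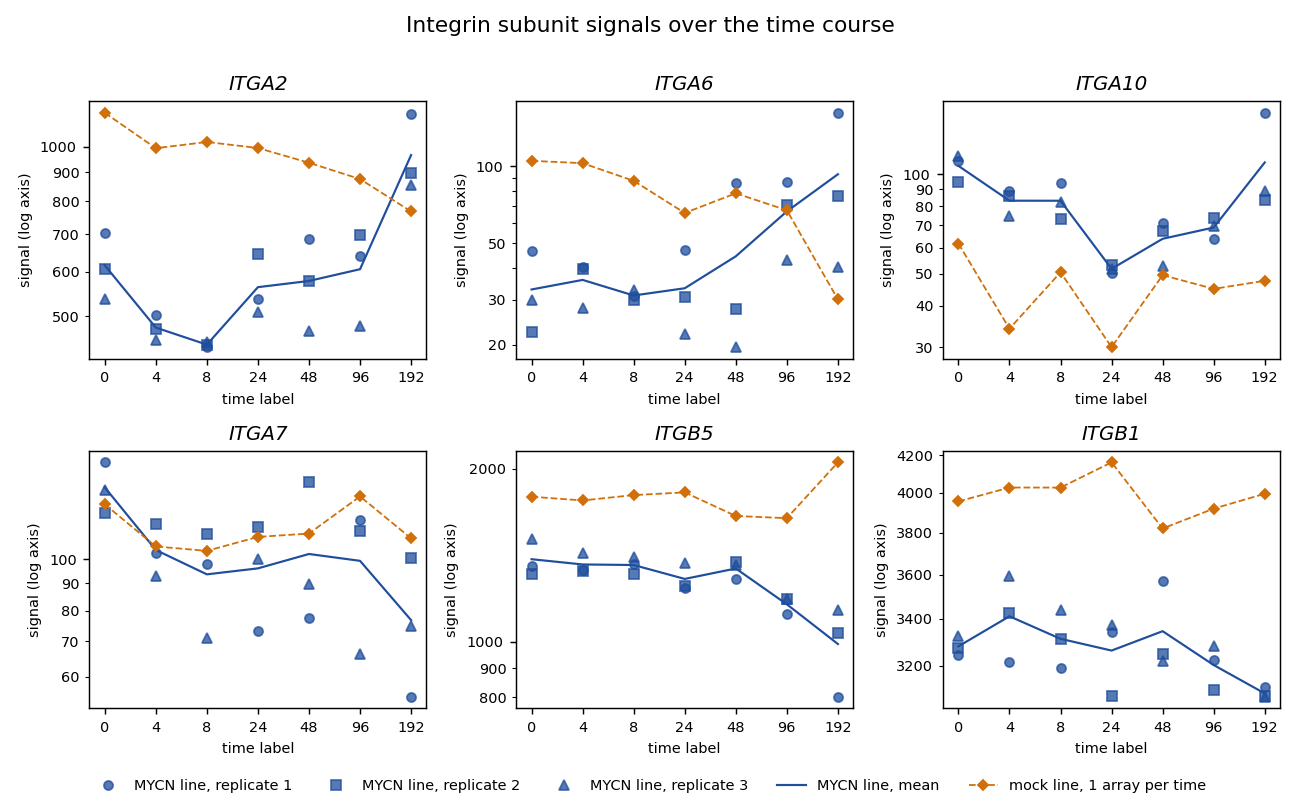
Signal (log axis) of integrin subunits against time label, drawn as for the glycoproteins. ITGA2 rises to 855 to 1145 at time 192 while the mock line moves to 768, and ITGB1 reads 3246 to 3326 at time 0 and 3076 to 3113 at time 192.

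With 1 array per time the mock line allows no test of a single time, and a linear trend over its 7 arrays (time steps in the order of the labels) was fitted instead. It called 5 of the 32 genes (15.6%, background 3.13%). They were ITGA1 higher (1 gene, 3.12%, background 1.61%) and TNC, ITGA6, THBS1 and ITGA2 lower (4 genes, 12.5%, background 1.52%). The trends were 0.17 per step for ITGA1, -0.24 for ITGA6, -0.12 for THBS1 and -0.08 for ITGA2 (limma adjusted p = 0.0240, 0.0381, 0.0240 and 0.0396). None of the 5 calls remained without the mock array of time 4, of time 8 or of time 192, where the count was 0. The ITGA2 call was lost without any 1 mock array, and that of ITGA6 also without time 24 (adjusted p = 0.0605).

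The difference in trend between the lines was tested by an interaction term fitted to the 28 arrays together. The trend was called lower in the MYCN line for 9 genes (28.1%, background 12.8%) and higher for 2 (6.25%, background 11.2%), or 11 in all (34.4%, background 24%). This is a test of trend and not of level. FN1 led with -0.63 per step (SE 0.08, limma adjusted p = 2.922e-06), then POSTN with -0.57 (adjusted p = 0.0266), THBS3 with -0.32 (0.00107), LAMA5 with -0.29 (9.14e-04), ITGA1 with -0.25 (0.00778) and LAMB2 with -0.21 (6.47e-04). ITGA6 (0.45, adjusted p = 0.00664) and ITGA2 (0.19, 0.0175) differed the other way, rising in the MYCN line and falling in the mock line. ITGA1 differed with a mock trend of 0.17 beside a MYCN line trend of -0.09. LAMC1, ITGB5 and SPARC were also called. POSTN was under the filter's signal in the mock line. The mock array of time 192 stood high for several genes (LAMB1 2273, NID1 1245, ITGA1 791). Without it 6 genes were called, 4 of them among the 11, and the calls of ITGA1, ITGA2, ITGA6, ITGB5, LAMC1, POSTN and SPARC were lost (adjusted p = 0.128, 0.116, 0.122, 0.416, 0.211, 0.158 and 0.0728), while those of FN1, LAMA5, LAMB2 and THBS3 held. Other single omissions also ended calls, at adjusted p from 0.0505 to 0.2095: the mock array of time 0 (ITGA2, ITGB5, LAMC1 and SPARC), of time 4 (POSTN, ITGB5 and LAMC1), of time 48 (LAMC1) and of time 96 (POSTN and SPARC), and replicate 1 (ITGB5, LAMC1 and SPARC), 2 (POSTN and LAMC1) or 3 (SPARC) of the MYCN line.

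The 2 lines already differed before most of these changes. At times 0, 4 and 8, 9 arrays of the MYCN line were compared with 3 of the mock line, with hybridisation batch as a term, a comparison chosen after seeing the data. Replicate 3 of the MYCN line shared its batch with all mock arrays, and replicates 1 and 2 were in the other batch. With the batch term, the estimated line difference is therefore that of replicate 3 against the mock arrays. Replicates 1 and 2 bear only on the batch term and the spread. MYCN was already induced at times 4 and 8 (mean signals of 2168 and 3951, against 84 at time 0). This comparison is therefore not of uninduced cells alone, and line and early induction are mixed in it. By limma 18 of the 32 genes were lower in the MYCN line (56.2%, background 18.4%) and 7 were higher (21.9%, background 21%), or 25 in all (78.1%, background 39.3%). ITGA8, ITGB8 and THBS4 passed the filter only through the mock line and POSTN only through the MYCN line, so a difference was built into their selection. Among the 28 genes above the filter in both lines at these times, 15 were lower (53.6%, background 18.5% of 11399 such genes) and 6 higher (21.4%, background 20.8%). The 2 lines' arrays did not overlap for the 25 genes and overlapped for the other 7. The share of all genes without overlap is not given here, so this count does not set the 32 genes apart. The labels do not say whether the lines are clones, so a difference between them cannot be told apart from 1 between clones.

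ITGA8, the α subunit of the nephronectin receptor α8β1, read 4.5 to 17.3 (median 8.7) in the MYCN line and 360 to 460 in the mock line. ITGB8, whose αvβ8 receptor activates TGF-beta, read 4.2 to 18.3 against 61.6 to 77.1, and another ITGB8 probe set had a mean of 686 in the mock line against 3.5 at time 0 in the MYCN line. No fold is given for either, since the MYCN line was mostly under the filter's signal. ITGA6 (3.26-fold), ITGA2 (2.20-fold), ITGAV (1.87-fold) and ITGA1 (1.85-fold) were also lower in the MYCN line, and ITGB1 was lower by a slight 1.16-fold. These folds are of replicate 3 against the mock arrays, by the fit with the batch term, while the ranges cover all 9 arrays. ITGA4 (116 to 153 against 47.1 to 60), ITGAE (726 to 951 against 277 to 358) and ITGA10 (73.0 to 113 against 34.1 to 61.7) were higher.

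Among matrix proteins, POSTN (49.6 to 106 against 0.5 to 5.9) and FN1 (1355 to 2343 against 222 to 240, 9.67-fold) were higher in the MYCN line, followed by LAMC3 (2.65-fold) and TNC (2.52-fold). FBN1 was 7.65-fold lower (12.6 to 43.9 against 237 to 247), and NID2 (2.19-fold), LAMA5 (2.13-fold) and SPARC (2.11-fold) were lower too. These folds are from the fit with the batch term, and so of replicate 3 against the mock arrays. The ranges cover all 9 arrays. Mean log2 signals over those 9 and over the mock arrays were 10.85 and 7.84 for FN1 and 4.61 and 7.91 for FBN1. They were 7.68 and 8.54 for NID2. THBS4 read 5.3 to 22.1 against 26.1 to 44.4. THBS2, which did not pass the filter, read at most 4.9 in the MYCN line and 76.7 to 130 in the mock line.

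**Figure D5:**
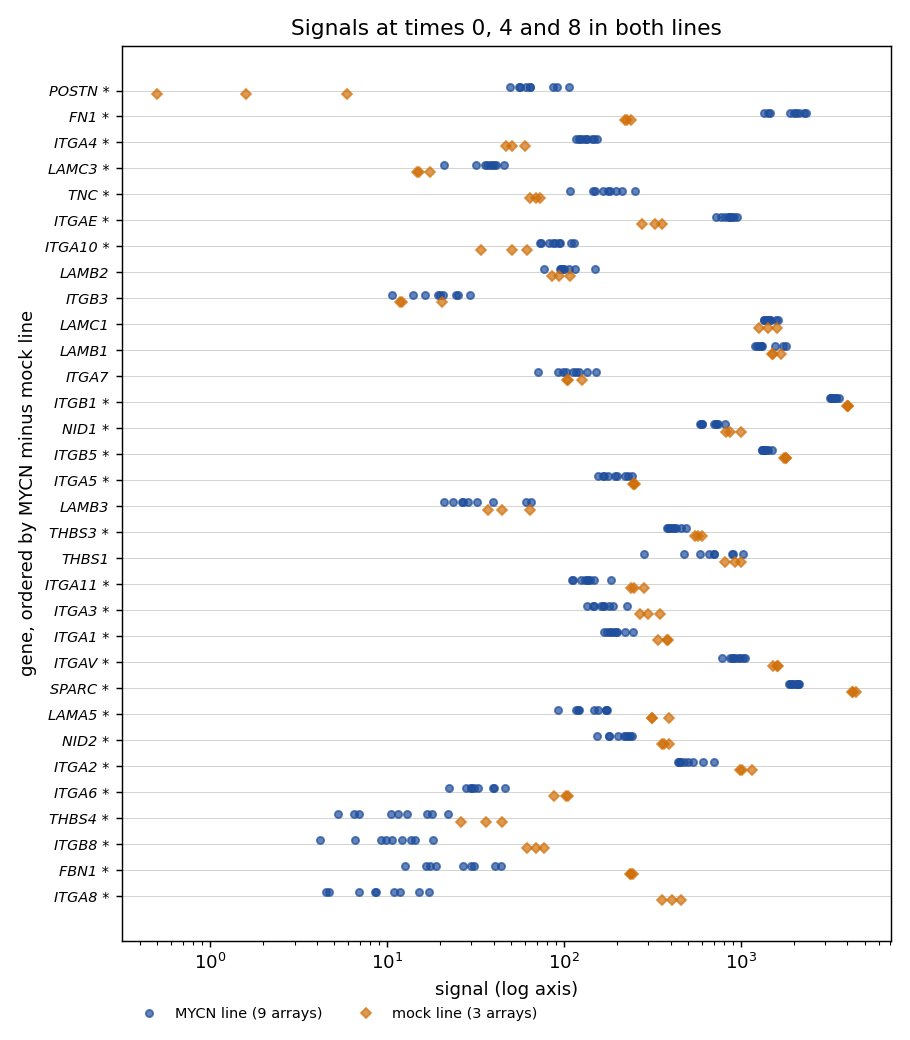
Signal (log axis) of the 32 tested genes at times 0, 4 and 8 in the MYCN line (9 arrays) and the mock line (3 arrays). Genes are ordered by the difference between lines from the fit with the batch term. An asterisk marks the 25 genes called between the lines, with POSTN and FN1 at the top and ITGA8 at the bottom.

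Other genes of the adhesion system give the setting. Of 39 tested genes for other matrix proteins and matrix receptors that are not integrins, 21 were lower at time 192 and none was higher (limma; background 14.1% lower and 11.6% higher), with a median of -0.56 against 0.13 on the mock array. The deepest were SDC3, a syndecan, which ended at a mean of 1.77 and so at background, DCN, the proteoglycan decorin (2376 ± 346 at time 0 and 139 ± 47.3 at time 192, SD, n = 3; -4.14, SE 0.39, limma adjusted p = 5.788e-07), and MFAP4 of the microfibrils (-3.66). Of 33 focal adhesion and adaptor genes 4 were higher and 5 lower, with a median of 0.03. FERMT1, a kindlin that activates integrins (1.31), CAV1, caveolin-1 (1.26), and FHL2 (0.80) rose, and TNS2, a tensin (-1.05), FERMT3, the kindlin of blood cells (-0.62), and TGFB1I1, the adaptor Hic-5 (-0.61), fell. On the mock array of time 192 CAV1 changed by -1.06, FERMT1 by -1.11 and FHL2 by 0.75. Of 25 proteases and inhibitors 2 were higher and 6 lower. PLAT, tissue plasminogen activator (-2.23, SE 0.12, limma adjusted p = 5.943e-10), MMP16 (-1.16) and ADAMTS3 (-0.97) fell, and ADAMTS1 (1.57) and MMP9, gelatinase B (1.53), rose from a dim level (17.3 and 21.5 at time 0).

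The 15 genes that did not pass the filter were FBN2, ITGA2B, ITGA9, ITGA9-AS1, ITGAL, ITGAM, ITGAX, ITGB2, ITGB4, ITGB7, LAMA1, LAMA2, LAMA4, LAMB4 and THBS2. ITGA9-AS1 is an antisense RNA that the symbol rule takes in. In the MYCN line these probe sets read at most 24.9 (ITGAL). The leukocyte subunits ITGAL, ITGAM, ITGAX and ITGB2 and the β4 subunit of hemidesmosomes are among them. LAMA3 was not analysed here, and ITGB6 lay only on 4 probe sets shared with another gene, at a signal of 21.9 or less.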

How the data were processed

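Total RNA of 28 SK-N-AS samples was labelled with biotin and hybridised, per the labels' protocols. The authors deposited 1 intensity per probe set and array on a linear scale, made with MAS5 and GCOS, per the submitters' processing notes (versions not given in the sources used here). Array medians were 12.9 to 20.2 and the 2% trimmed mean was 100 on all arrays. The values were not normalized further.

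Values at or under 0 (91 in all) were set to 0.1, and log2 of the deposited intensity was used throughout. Probe sets naming a single gene (41091 of 54675) were kept, the brightest by mean log2 for each gene, and genes from the 40th percentile (log2 of 3.68, signal 12.8) upward were tested. The tests used limma 3.58.1 in R 4.3.3, with a variance trend in eBayes, two-sided, with Benjamini-Hochberg adjustment over 11865 genes. The fits had 14 (MYCN line), 5 (mock trend), 24 (difference in trend) and 7 (lines at early times) residual degrees of freedom. They were tested on simulated data.

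Arrays with the same replicate number deviated together with time 0 at times 4, 8 and 192 (all correlations at least 0.129, and 0.149, 0.129 and 0.226 at time 192). At times 24, 48 and 96 replicate 2 did not (-0.0608, 0.0549 and -0.0248), while replicates 1 and 3 had 0.122 to 0.329. The arrays were taken as paired at times 4, 8 and 192 only, a choice that rests on these low correlations and not on the labels. Replicates 1 and 2 were in 1 hybridisation batch and replicate 3 in the other at all times. A batch difference alone would also give positive correlations, so they cannot show that arrays with the same number share a culture.

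Genes called at some time or in the difference in trend, and ITGB1, ITGAV, LAMB1, LAMC1, FN1, THBS1, SPARC and TNC, are given by array. From each further gene list the 3 highest and 3 lowest called genes at time 192 are named. Others appear by range, and those singled out were chosen after their values were seen. The members, lists and rules were chosen with earlier results of these data known. Alternatives covered the filter, scaling, probe set choice, variance trend, blocks, batches and left-out arrays. Promoter windows are RefSeq's, matched by Entrez gene number.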

Additional observations from a re-analysis of the deposited data

Results flagged for a closer look

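The trend over time differed between the MYCN line and the mock line for 11 genes by the interaction of line and time step (limma, 28 arrays). On the log2 scale per step, MYCN line minus mock line, it was -0.629 for FN1, -0.571 for POSTN, -0.320 for THBS3, -0.287 for LAMA5, -0.253 for ITGA1, -0.206 for LAMB2, -0.108 for LAMC1, -0.0806 for ITGB5 and -0.0519 for SPARC. It was 0.454 for ITGA6 and 0.185 for ITGA2. For ITGA6 and ITGA2 the trend rose in the MYCN line (0.21 and 0.11) and fell in the mock line (-0.24 and -0.08). Without the mock array of time 192 the difference was 0.35 for ITGA6 (adjusted p = 0.122) and 0.17 for ITGA2 (adjusted p = 0.116).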

How the results depend on the processing

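Over 73 results for single genes and 1174 alternatives, 990 kept their direction and side of the threshold, 183 lost the call and 1 reversed: the line difference of NID1, 0.0147 with the mean of all probe sets (adjusted p = 0.966). FN1, THBS3, TNC, LAMA5, LAMB2, LAMC3 and ITGB5 kept the call at time 192 under all alternatives run. POSTN lost it in 10 of 17. Counts of called genes moved as follows. With no filter on low signal, a filter at the 60th percentile and the mean of probe sets, the mock trend gave 3, 3 and 2 (5 as reported), and without the variance trend it gave 0 (limma, no gene of the 32). The 60th percentile also gave 4 at time 48 (8 as reported) and 16 between the lines (25), with fewer genes tested. Without probe sets ending in _s_at or _x_at, 4, 5 and 6 were called at times 48, 96 and 192 (8, 9 and 12 as reported), 6 by the F-test (11) and 7 in the difference in trend (11), and several genes then have no probe set. Quantile normalization gave 6 at time 24. Fitting the arrays of time 0 and time 48 alone gave 3. The replicate block gave 1 at time 8, 10 at time 24 and 19 by the F-test, and the hybridisation batch as a block gave 1, 6 and 19. The replicate block raised the share of all genes called as well, to 2.36% at time 8 and 14.9% at time 24 (0.767% and 7.18% without it). No such share is given here for the F-test with a block or for the batch block, so those counts cannot be set against a background. At time 192 the pairing by replicate block changed 5 calls, those of FBN1, ITGA1, LAMB1, LAMC1 and NID1, and it lost none. Leaving out replicates or single arrays gave 0 to 3 at time 24, 2 to 9 at time 48, 5 to 12 at time 96, 9 to 13 at time 192, 5 to 16 by the F-test, 0 to 6 in the mock trend and 6 to 12 in the difference in trend. The fit between lines could not be made without replicate 3, where line and batch coincide. Equal array medians and quantile normalization moved the median change of all genes at time 192 by 0.03. The causes were not tested. Signals near the filter (FBN1, THBS4, ITGA8, ITGB3 and ITGB8 in the MYCN line) are too close to background for small changes to be seen.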
